A study of Mus musculus with 441 samples.

Results

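The surface proteins folate receptor 4 (FR4), CD73 and neuropilin-1, are described here through their genes Folr4, Nt5e and Nrp1 in single CD4 T cells from mouse pancreatic islets. They are 3 of the 13561 genes in the deposited expression table and were chosen by name; Folr4 is the older symbol of Izumo1r. Each had 1 row in the table. Detection of a gene in a cell meant 1 TPM or more, where TPM is the share of a transcript in the cell's RNA, scaled for gene length to a fixed total.

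CD4 T cells that meet antigen without full costimulation can become anergic, that is, unresponsive to further stimulation. In mice, high FR4 together with high CD73 marks anergic conventional CD4 T cells, and neuropilin-1 has been used to pick out those from which Foxp3-positive cells can arise. All 3 are also carried by regulatory T cells (Tregs), whose lineage factor is Foxp3, and FR4 and CD73 are carried by T follicular helper (Tfh) cells. FR4 belongs to the folate receptor family, although it binds no folate, and on the mouse egg the same protein, called Juno, is the receptor for the sperm protein Izumo1. CD73 is an ectoenzyme that makes adenosine from AMP outside the cell. Neuropilin-1 is a co-receptor for semaphorins and vascular endothelial growth factor.

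The cells were sorted singly from dissociated islets by binding of 1 of 2 tetramers, named HIP and Ins in the labels without further explanation, and sequenced by the full-length SMART-Seq2 method. The authors divided the 441 cells into 5 classes. The HIP sort gave 184 cells, of which 3 were Tregs, 111 Tfh cells, 61 cells of cluster 2, which the authors' annotation calls activated CD4 T cells, and 9 dividing CD4 T cells. The Ins sort gave 257 cells, of which 115 were Tregs, 61 Tfh cells, 25 cells of cluster 2, 35 dividing CD4 T cells and 21 cells of cluster 4, named B cells in that annotation. The sources used here do not give the strain, age, treatment or number of mice, and no label ties a cell to an animal. Each sort was therefore 1 sample, no test was made, and all intervals are exact 95% Clopper-Pearson intervals that cover counting error only.

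Cd3e, a chain of the T cell receptor complex, marked 95.7% of T cells (all classes but cluster 4) sorted with HIP and 97.5% of those sorted with Ins, and Cd4 marked 85.9% and 85.6%. In cluster 4, Cd4 was detected in none of the 21 cells and Cd3e in 1. The number of genes detected per cell had a median of 2081 with a range of 625 to 5929, and its median was 3992 in HIP and 3610 in Ins dividing cells, against 1862 to 2294 in the other T cell groups. Cell names fall into blocks of 96 consecutive numbers, 2 for the HIP and 3 for the Ins sort. The labels do not say what the blocks are, so they serve to describe the spread within a sort and are not replicates.

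Folr4 (Izumo1r, ENSMUSG00000031933.17) lies on the minus strand of chromosome 9 at 14885814 to 14903949, and Nt5e (ENSMUSG00000032420.8) on the plus strand of the same chromosome at 88327197 to 88372092, on build GRCm38. Nrp1 (ENSMUSG00000025810.9) lies on the plus strand of chromosome 8 at 128358604 to 128503363. The 250 bases before each RefSeq start (GRCm38.p6) were searched on both strands for the letters of 7 motifs, because Folr4 and Nt5e were often detected together. Only the bases from the 5′ end of a window up to the first annotated exon are printed. They are 68 of the window of Folr4 (chr9:14903950-14904017, minus strand), with the reverse complement of the NFAT letters TGGAAA in capitals, and all 250 of that of Nrp1 (chr8:128358823-128359072, plus strand), with a GC box (GGGCGG) in capitals. Both run 5′ to 3′ along the gene.
Folr4: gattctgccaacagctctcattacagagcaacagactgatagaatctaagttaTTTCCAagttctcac
Nrp1: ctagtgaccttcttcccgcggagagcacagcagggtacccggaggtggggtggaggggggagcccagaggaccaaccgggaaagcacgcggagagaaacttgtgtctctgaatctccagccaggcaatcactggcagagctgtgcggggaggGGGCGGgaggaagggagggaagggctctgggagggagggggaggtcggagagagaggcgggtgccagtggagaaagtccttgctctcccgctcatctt

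The window of Nt5e begins inside an annotated exon and is not printed. The NFAT letters of Folr4 begin 197 bases before the start, and 18.6% of the 32851 promoter windows in the table hold them. Nt5e held 4 GC boxes, in 2 overlapping pairs, and Nrp1 held 1, against 32.7% of all windows with at least 1. None of the 3 windows held the letters searched for AP-1 (TGANTCA, in 6.75% of windows), forkhead factors (TGTTTAC, 3.17%), NR4A factors (AAAGGTCA, 1.34%), CREB (TGACGTCA, 1.55%) or a TATA box (TATAAA, 12.4%). No match overlapped a match of another motif. The GC content was 50.0% for Folr4, 72.0% for Nt5e and 64.4% for Nrp1, against a median of 52.4% over all windows. No motif of the 7 was found in all 3 windows, and a match is a run of letters and not a binding site.

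Folr4 was the most widely detected of the 3 and ranked among the abundant transcripts of these T cells. It was found in 337 of the 420 T cells (80.2%, 76.1% to 83.9%), and its mean of 1471 TPM over those cells ranked 105 of 13561 genes. Of the 115 Ins Tregs, 109 had it (94.8%, 89.0% to 98.1%), at 19.8 TPM in the lowest of those 109, 1998 TPM at their median and 6579 TPM in the highest. All 3 HIP Tregs had it, at 2817, 2894 and 10252.5 TPM. Nearly every Treg thus carried the transcript, with a mean of 2039 ± 1322 TPM in the Ins Tregs (SD over cells, n = 115).

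In Tfh cells and cluster 2, Folr4 was at 0 in part of the cells and mostly high in the rest. Of the Tfh cells it was detected in 72 of the 111 from HIP (64.9%, 55.2% to 73.7%) and 46 of the 61 from Ins (75.4%, 62.7% to 85.5%). Where detected, it ran from 1.96 TPM through a median of 1298 to 5865 TPM in HIP Tfh cells and from 2.41 through 1591 to 4999 TPM in Ins Tfh cells. The detected levels of the sorts overlapped over nearly their whole range. Cluster 2 had it in 46 of 61 HIP cells (75.4%) and 20 of 25 Ins cells (80.0%), with means of 1652 ± 1777 and 1587 ± 1708 TPM (SD over cells). Dividing cells carried it in 6 of 9 cases in HIP and 35 of 35 in Ins, at lower means of 366 and 862 TPM. Only 4 of the 337 T cells with any Folr4 were under 10 TPM, so raising the detection limit to 10 TPM would change 4 calls. Cluster 4, which lacked Cd4, had it in 1 of 21 cells, at 5.54 TPM.

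**Figure D1:**
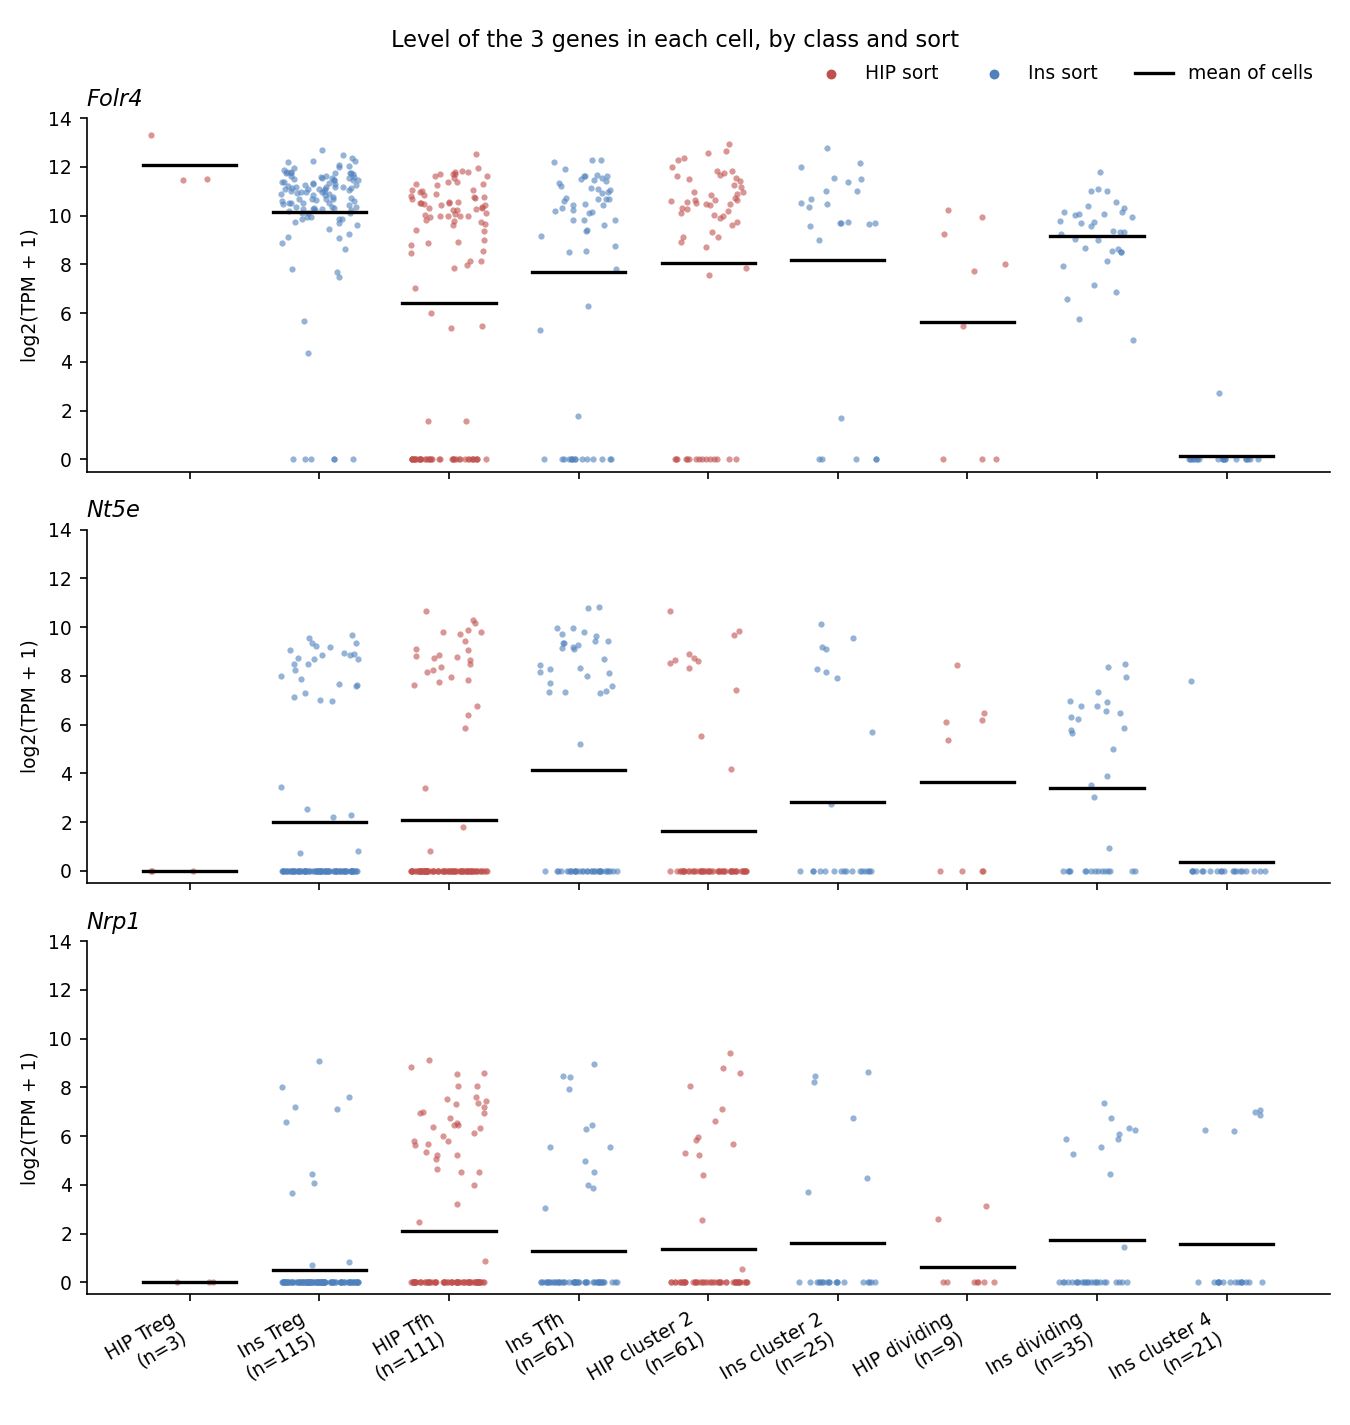
Level of Folr4, Nt5e and Nrp1 in each cell as log2(TPM + 1), by class and sort, with the HIP sort in red and the Ins sort in blue. Each point is 1 cell and the black line is the mean of the cells; Folr4 is high in nearly all of the 115 Ins Tregs, while the Nt5e and Nrp1 points of every class with more than 3 cells divide between 0 and a detected group.

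Nt5e was detected in fewer cells, and in the Ins sort in a larger share of Tfh cells than of Tregs. Of all 420 T cells, 132 had it (31.4%, 27.0% to 36.1%). In Ins Tregs it was found in 30 of 115 cells (26.1%, 18.3% to 35.1%) and ran from 3.67 TPM through a median of 358 to 825 TPM among the 30. Among Tfh cells, 28 of 111 in the HIP sort had it (25.2%, 17.5% to 34.4%) and 29 of 61 in the Ins sort (47.5%, 34.6% to 60.7%). The share in Ins Tfh cells was thus above that in the HIP Tfh cells and that in the Ins Tregs, and its interval did not overlap that of the HIP Tfh cells, while it did overlap that of the Ins Tregs. The detected levels were 2.46 to 1624 TPM in HIP Tfh cells, with a median of 411, and 35.6 to 1796 TPM in Ins Tfh cells, with a median of 548.

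In cluster 2, 12 of the 61 HIP cells carried Nt5e (19.7%, 10.6% to 31.8%), as did 9 of the 25 Ins cells (36.0%, 18.0% to 57.5%), and these intervals overlap. Dividing cells had it in 5 of 9 HIP cells (55.6%) and 19 of 35 Ins cells (54.3%, 36.6% to 71.2%). More genes were detected in dividing cells, and what that contributes to these shares was not tested. The mean levels of Nt5e in HIP and Ins dividing cells, 68.4 and 60.5 TPM, were lower than the 126 and 268 TPM of HIP and Ins Tfh cells. None of the 3 HIP Tregs had it, which is too few cells to set a share. In cluster 4, 1 of 21 cells had it.

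Nrp1 was the rarest of the 3 and was least often detected in Tregs. It was found in 91 of 420 T cells (21.7%, 17.8% to 25.9%). Only 9 of 115 Ins Tregs had it (7.83%, 3.64% to 14.3%), and none of the 3 HIP Tregs. Among Tfh cells, 37 of the 111 from the HIP sort (33.3%, 24.7% to 42.9%) and 13 of the 61 from the Ins sort (21.3%, 11.9% to 33.7%) carried it. The shares were 13 of 61 HIP cells (21.3%) and 6 of 25 Ins cells (24.0%) in cluster 2, and 2 of 9 and 11 of 35 (31.4%) in dividing cells. The interval of the Ins Tregs did not overlap that of the HIP Tfh cells or of the Ins dividing cells, and it did overlap those of the other groups. Cluster 4 had Nrp1 in 5 of 21 cells (23.8%, 8.22% to 47.2%), a share like those of the T cells outside the Treg class.

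The mean level of Nrp1 over all T cells, 28.9 TPM, was also the lowest of the 3, against 127 TPM for Nt5e. It ran from 11.6 through a median of 137 to 547 TPM in the 9 Ins Tregs that had it, from 4.54 through 85.8 to 548 TPM in the 37 HIP Tfh cells and from 7.30 through 46.1 to 497 TPM in the 13 Ins Tfh cells. With detection set at 50 TPM the shares were 22.5% in HIP Tfh cells, 9.84% in Ins Tfh cells and 5.22% in Ins Tregs, so the order of the 3 groups was kept.

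**Figure D2:**
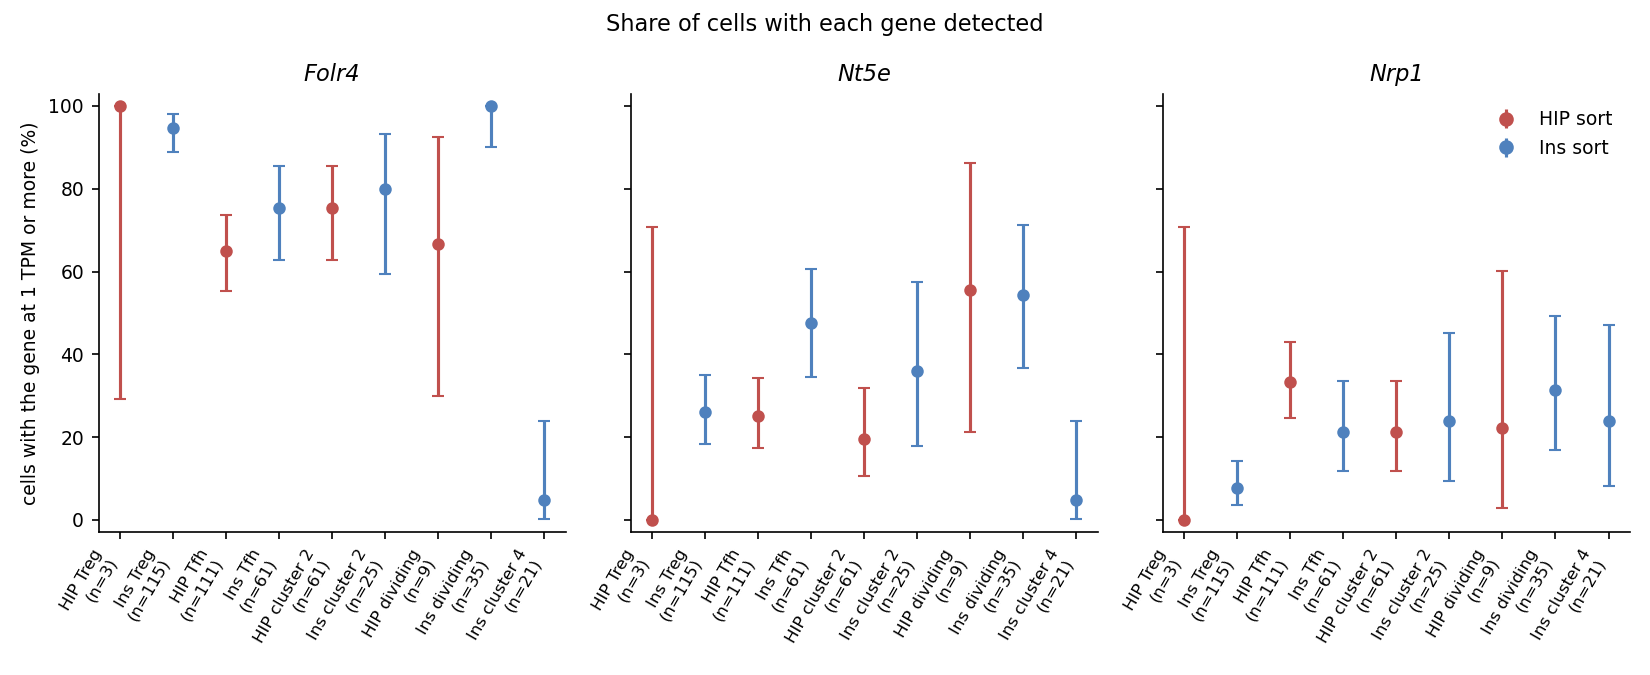
Share of cells with Folr4, Nt5e or Nrp1 at 1 TPM or more in each class and sort, with the HIP sort in red and the Ins sort in blue; bars are exact 95% Clopper-Pearson intervals over cells. Nt5e reaches 47.5% in Ins Tfh cells against 26.1% in Ins Tregs, and Nrp1 lies lowest, at 7.83%, among groups of more than 3 cells in the Ins Tregs.

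Between the sorts, Tfh cells of the HIP sort had less Nt5e and Folr4 and more Nrp1 than those of the Ins sort, measured as the difference of mean log2(TPM + 1), HIP minus Ins. Nt5e differed by -2.06, with a mean level of 126 ± 295 TPM in the 111 HIP Tfh cells and 268 ± 411 TPM in the 61 Ins Tfh cells (SD over cells), a ratio of 0.470. That difference ranked 4 from the lowest of the 13561 genes. Folr4 differed by -1.28 (992 and 1367 TPM) and Nrp1 by 0.84 (43.1 and 29.1 TPM). So 2 of the 3 genes were lower by 1 or more, a size reached in that direction by 1.61% of all genes, and none was higher by 1 or more, which 0.885% of all genes were.

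Over the blocks of name numbers the difference held for Nt5e and Nrp1 and not for Folr4. The mean log2(TPM + 1) of Nt5e was 2.33 and 1.80 in the 2 HIP blocks of Tfh cells, against 3.17, 5.47 and 3.54 in the 3 Ins blocks. Nrp1 was at 2.23 and 2.00 in the HIP blocks, against 1.58, 1.76 and 0.61 in the Ins blocks. Every HIP block lay below every Ins block for Nt5e, as for 6.25% of all genes, and above for Nrp1, as for 8.42% of all genes. The Folr4 means were 5.26 and 7.71 in the HIP blocks, against 6.69, 7.72 and 8.33 in the Ins blocks, so the sorts overlapped. Folr4 was detected in 31 of 59 Tfh cells (52.5%) of the first HIP block and 41 of 52 (78.8%) of the second, with a median of 1775 and 2037 genes per cell, and without the first block its difference was 0.02. Without the second Ins block, where 14 of 22 Tfh cells had Nt5e, the difference of Nt5e was -1.31. What the blocks contribute was not tested.

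In the other classes the sorts differed less regularly. In cluster 2 the differences, HIP minus Ins, were -0.13 for Folr4, -1.21 for Nt5e and -0.22 for Nrp1, beside 3.02% of all genes lower and 3.78% higher by 1 or more. The Nt5e means of the HIP and Ins blocks overlapped in cluster 2 (2.68 and 0.78 against 3.33, 1.45 and 3.40), as did those of the other members, beside 3.31% of all genes with every HIP block below and 11.1% with every HIP block above. Without the second HIP block the difference of Nt5e was -0.15. In dividing cells, Folr4 differed by -3.54, Nt5e by 0.23 and Nrp1 by -1.11, with 9 HIP and 35 Ins cells and with 7.03% of all genes lower and 12.1% higher by 1 or more. Foxp3 was detected in 0 of the 9 dividing cells of the HIP sort, which allows up to 33.3%, and in 27 of the 35 Ins dividing cells, so these groups also differed in the share of cells with that Treg factor. Its part in the Folr4 difference was not tested.

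**Figure D3:**
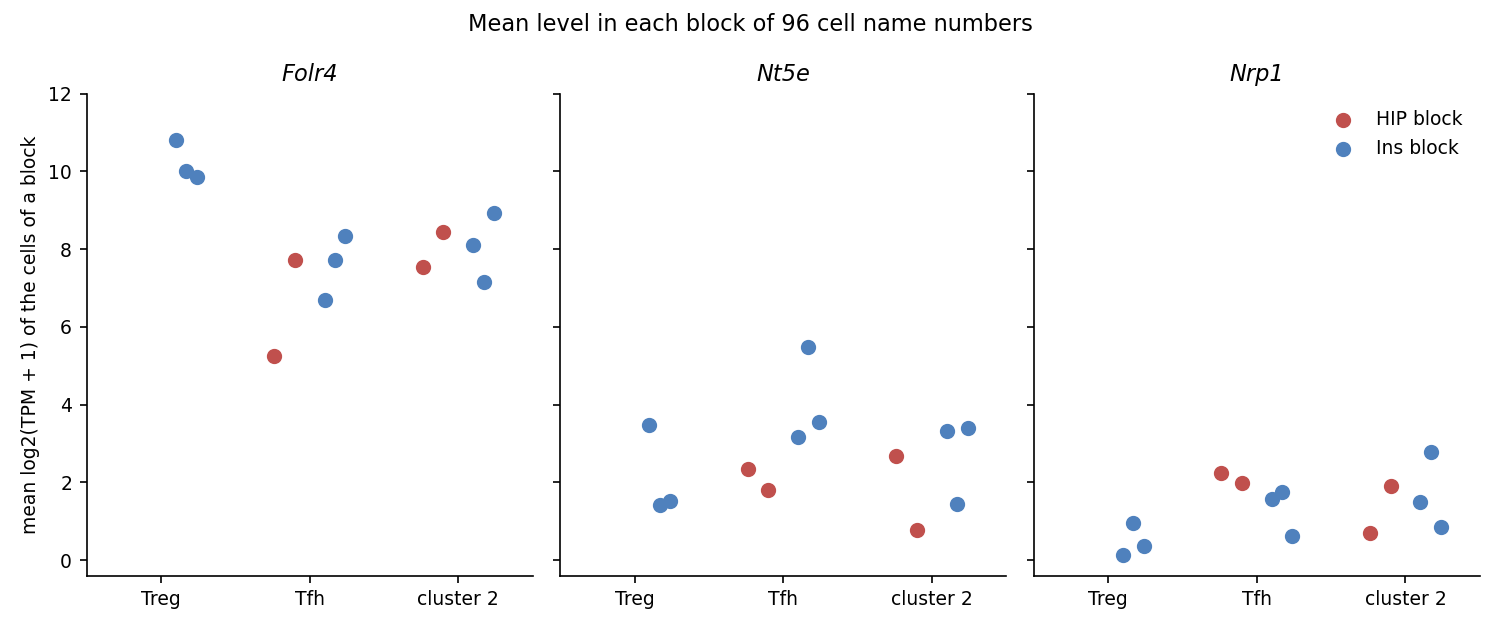
Mean log2(TPM + 1) of Folr4, Nt5e and Nrp1 over the cells of each block of 96 cell name numbers, for Tregs, Tfh cells and cluster 2, with the 2 HIP blocks in red and the 3 Ins blocks in blue; the 3 HIP Tregs are not drawn. In Tfh cells both HIP points lie below all Ins points for Nt5e (2.33 and 1.80 against 3.17 to 5.47), while the points of the sorts overlap for Folr4.

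Within the Ins sort, Tregs had more Folr4 and less Nt5e than Tfh cells. The classes were made from the same expression values, and the comparison shares the Ins Tfh cells with the one between the sorts, so these values are a description. Treg minus Tfh, Folr4 differed by 2.48 (2039 and 1367 TPM), Nt5e by -2.13 (90.1 and 268 TPM) and Nrp1 by -0.76 (12.4 and 29.1 TPM). Among all genes, 4.03% were higher and 1.94% lower by 1 or more. Folr4 was higher in Tregs in each of the 3 blocks, where 31 of 31, 37 of 40 and 41 of 44 Tregs had it, against 11 of 16, 17 of 22 and 18 of 23 Tfh cells. Nt5e was not: the first block had it in 41.9% of Tregs and 37.5% of Tfh cells, the second in 17.5% and 63.6%, and the third in 22.7% and 39.1%. Without the second block its Treg minus Tfh difference was -1.07.

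Against cluster 2 of the same sort, Tregs differed by 2.00 for Folr4, -0.82 for Nt5e and -1.09 for Nrp1, beside 4.51% of genes higher and 3.01% lower. Dividing cells against Tregs differed by -0.998 for Folr4, 1.38 for Nt5e and 1.23 for Nrp1. Among all genes, 25.4% were higher by 1 or more in dividing cells, in which more genes were detected, and 0.538% lower. Nt5e was detected in 54.3% of dividing cells and 26.1% of Tregs, but its mean level was lower, at 60.5 against 90.1 TPM. That of Nrp1 was higher, at 20.3 against 12.4 TPM. The mean level of Folr4 was 862 TPM in dividing cells against 2039 TPM in Tregs, although every one of the 35 dividing cells had the transcript. Foxp3 was lower as well, by -1.30 (262 and 580 TPM), so a lower level was not particular to Folr4. Tfh cells against cluster 2 differed by 1.31 for Nt5e in the Ins sort (3.72% of genes higher) and by 0.46 in the HIP sort (1.19% higher). For Folr4 the same differences were -0.49 in the Ins sort (4.40% of genes lower) and -1.64 in the HIP sort (3.69% lower). Without the second Ins block the Nt5e value in the Ins sort was 0.02.

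The marker of anergic conventional CD4 T cells in mice is high FR4 protein with high CD73 protein. What is counted here is RNA of both genes at 1 TPM or more, which does not give protein levels. Folr4 was found in 117 of the 132 T cells with Nt5e (88.6%), so the pair mostly followed Nt5e. Folr4 and Nt5e were detected together in 34 of 184 HIP T cells (18.5%, 13.1% to 24.9%) and 83 of 236 Ins T cells (35.2%, 29.1% to 41.6%). Tfh cells showed the same order, with 19 of the 111 from HIP (17.1%, 10.6% to 25.4%) and 27 of the 61 from Ins (44.3%, 31.5% to 57.6%). Among Tfh cells the HIP blocks had 18.6% and 15.4% and the Ins blocks 37.5%, 59.1% and 34.8%, so the sorts did not overlap. By mean level in Tfh cells, every HIP block lay below every Ins block for 6.25% of all genes, Nt5e included. The pair is counted in cells with Nt5e, so this is not a separate result. Ins Tregs had the pair in 29 of 115 cells (25.2%, 17.6% to 34.2%). Cluster 2 had 11 such cells of 61 in the HIP sort (18.0%) and 8 of 25 in the Ins sort (32.0%), and the dividing class had 4 of 9 and 19 of 35 (54.3%). Cluster 4 had it in 0 of 21 cells, which allows up to 14.3%.

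In Ins Tfh cells, Nt5e was found mostly where Folr4 was. It was detected in 27 of the 46 Ins Tfh cells with Folr4 (58.7%, 43.2% to 73.0%) and in 2 of the 15 without (13.3%, 1.66% to 40.5%), with medians of 2067 and 1963 genes per cell. HIP Tfh cells showed no such split, at 19 of 72 with Folr4 (26.4%, 16.7% to 38.1%) and 9 of 39 without (23.1%, 11.1% to 39.3%). Other groups went in the direction of the Ins Tfh cells, with overlapping intervals and few cells without Folr4. Cluster 2 had Nt5e in 11 of 46 HIP cells with Folr4 and 1 of 15 without, and in 8 of 20 and 1 of 5 Ins cells. HIP dividing cells had it in 4 of 6 and 1 of 3. In Ins Tfh cells the pair was found in 44.3% of cells, against 35.9% for the product of the single shares. In Ins Tregs these values were 25.2% and 24.7%. With Folr4 in 94.8% of Ins Tregs they could not lie far apart, so the classes cannot be compared on this. Across cells, Pearson's r between Folr4 and Nt5e on the log2 scale was 0.35 in the 61 Ins Tfh cells, 0.01 in the 111 HIP Tfh cells and 0.11 in the 115 Ins Tregs, values that share each cell's depth and are given as a description. In Ins Tregs the level of Folr4 averaged 2621 ± 1530 TPM in the 30 cells with Nt5e and 1834 ± 1184 TPM in the 85 without (SD over cells).

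Nrp1 was found beside Nt5e more often than away from it in Tfh cells of both sorts. In HIP Tfh cells it was detected in 14 of 28 cells with Nt5e (50.0%, 30.6% to 69.4%) and 23 of 83 without (27.7%, 18.4% to 38.6%). In Ins Tfh cells it was detected in 9 of 29 with Nt5e (31.0%, 15.3% to 50.8%) and 4 of 32 without (12.5%, 3.51% to 29.0%). The intervals overlap in each sort, and the cells with Nt5e also had more genes detected, with medians of 2094 against 1905 in HIP and 2222 against 1796 in Ins Tfh cells. What that depth contributes was not tested. In Ins Tregs the shares were alike, at 2 of 30 with Nt5e and 7 of 85 without.

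All 3 genes were detected together in 29 of the 420 T cells (6.90%, 4.67% to 9.77%). They were 9 of 111 HIP Tfh cells (8.11%), 8 of 61 Ins Tfh cells (13.1%), 2 of 115 Ins Tregs (1.74%), 4 of 61 HIP cells of cluster 2, 1 of 9 HIP dividing cells, 5 of 35 Ins dividing cells and 0 of 25 Ins cells of cluster 2, which allows up to 12.0%. At the other end, none of the 3 was detected in 24 HIP Tfh cells, 10 Ins Tfh cells, 5 Ins Tregs, 13 HIP and 3 Ins cells of cluster 2 and 0 of the 35 Ins dividing cells. The commonest pattern in T cells was Folr4 alone, in 177 of 420 cells (42.1%). Nt5e was found without Folr4 in 11 of the 45 HIP T cells with Nt5e and 4 of the 87 Ins T cells with it. In the HIP sort 57 of all 184 T cells lacked Folr4, and in the Ins sort 26 of 236.

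**Figure D4:**
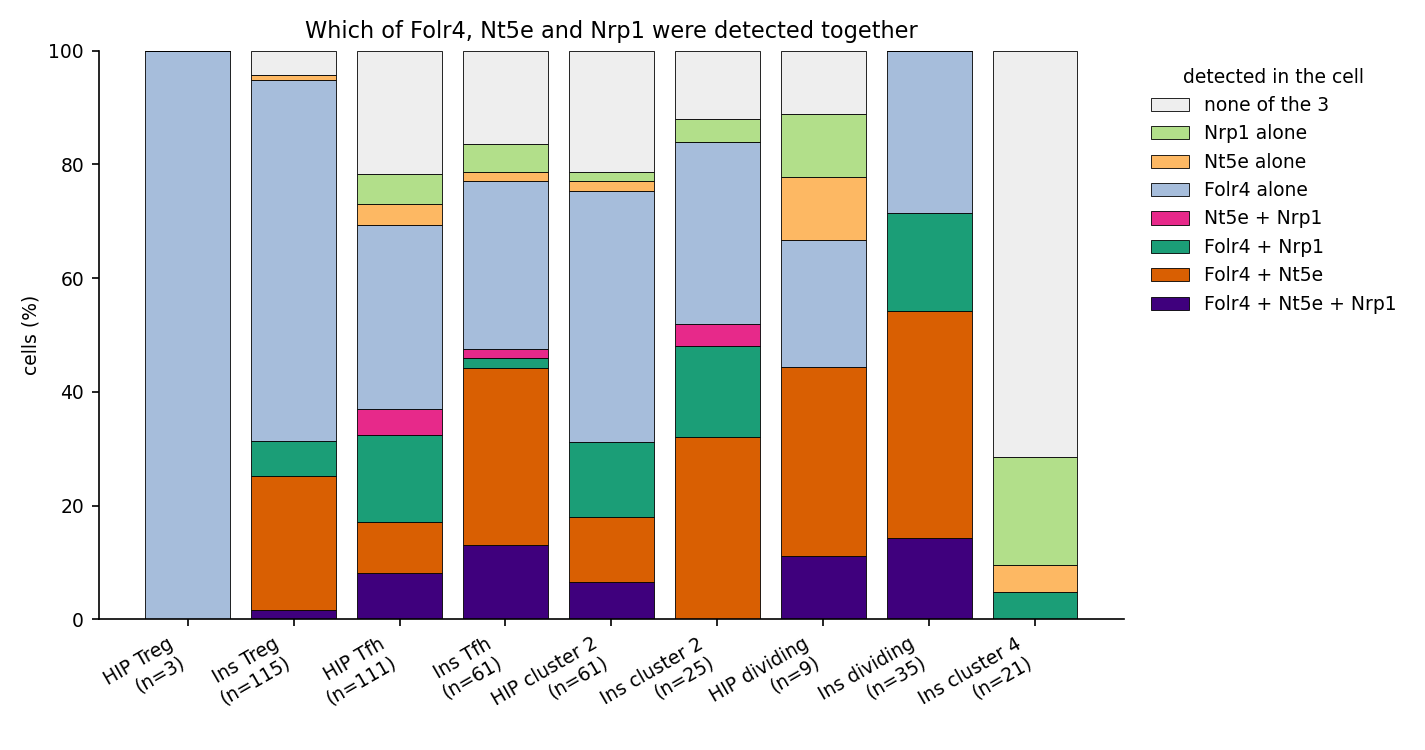
Share of cells in each class and sort by which of Folr4, Nt5e and Nrp1 were detected in the cell, stacked to 100%; each colour is 1 of the 8 combinations. The orange and purple parts, Folr4 with Nt5e, make up 44.3% of Ins Tfh cells against 17.1% of HIP Tfh cells, and Folr4 alone makes up most of the Ins Tregs.

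Since Tregs carry the same proteins, the pair was also counted in T cells without Foxp3. In the HIP sort 33 of 181 such cells had Folr4 and Nt5e (18.2%, 12.9% to 24.6%), and in the Ins sort 37 of 103 (35.9%, 26.7% to 46.0%). Foxp3-detected Ins T cells had the pair at nearly the same share, in 46 of 133 (34.6%, 26.6% to 43.3%). Of all 117 T cells with the pair, 70 had no Foxp3 (59.8%), namely 33 of the 34 HIP cells and 37 of the 83 Ins cells. Foxp3 was also missed in 21 of the 115 Ins Tregs, which had Folr4 in 19 cells and Nt5e in 4, so cells without the transcript include some that the authors classed as Tregs.

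Among T cells without Foxp3, Nrp1 was detected in 13 of the 33 HIP cells with the pair (39.4%, 22.9% to 57.9%) and 10 of the 37 Ins cells with it (27.0%, 13.8% to 44.1%). The cells without the pair had it in 38 of 148 HIP cells (25.7%) and 15 of 66 Ins cells (22.7%), and all these intervals overlap. Foxp3-detected Ins T cells had Nrp1 in 14 of 133 cells (10.5%, 5.88% to 17.0%) and the Ins T cells without Foxp3 in 25 of 103 (24.3%, 16.4% to 33.7%). Neuropilin-1 is used in mice to mark Tregs that arise in the thymus. These intervals overlap slightly, and within the Ins Tregs the shares were 7 of 94 with Foxp3 (7.45%) and 2 of 21 without (9.52%). The HIP sort had Nrp1 in 1 of 3 T cells with Foxp3 and 51 of 181 without.

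The Tfh cells without Foxp3 that had both Folr4 and Nt5e were compared with the remaining Tfh cells without Foxp3, a comparison chosen after the values were seen. In the Ins sort (23 and 30 cells), 11 of 16 genes of the Tfh lineage were higher by 1 or more in the cells with the pair and 1 was lower. Their median difference was 1.76, against 0 over all genes and 0.22 over genes detected in 10% of the cells of either group. Among all genes, 8.44% were higher and 2.41% lower by that size. Tcf7, a transcription factor that Tfh cells need, differed by 2.84 and was detected in 95.7% of the cells with the pair, against 63.3% of the others. Slamf6, a receptor for contact with B cells, differed by 2.39, the transcription factor Maf by 2.00 and the costimulator Icos by 1.96. Bcl6, the lineage factor of Tfh cells, differed by 1.86 and was detected in 52.2% against 30.0%. Cd40lg, the ligand through which helper cells stimulate B cells, differed by -1.08.

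The anergy genes moved in the same direction in those Ins cells, with 10 of 24 higher by 1 or more, none lower and a median of 0.78. Among all genes, 8.44% were higher and 2.41% lower. Folr4 and Nt5e, which define the cells, were left out of the list. Nrp1 was kept in it and is 1 of the 10, at 1.10. The inhibitory receptor Tigit differed by 3.00, the calcium-dependent factor Nfatc2 by 2.44, the ubiquitin ligase adaptor Ndfip1 by 2.37 and the inhibitory receptor Lag3 by 2.01. Nfatc2 was detected in 34.8% of cells with the pair and 3.33% of the others. The cells with the pair had a median of 2126 genes detected, against 1796 in the others, and over cells with 1500 to 3000 genes the medians were 1.66 for the Tfh list and 0.54 for the anergy list. What the number of genes contributes was not tested.

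The HIP sort gave a different picture. Of the same lists, 3 of 16 Tfh genes were higher and 2 lower in the 18 HIP Tfh cells with the pair than in the other 91 (median -0.01), and 7 of 24 anergy genes were higher and 1 lower (median 0.08), beside 5.90% of all genes higher and 2.60% lower. Icos differed by 3.10, Sh2d1a, the adaptor SAP of the SLAM receptors, by 2.16 and Pdcd1, the inhibitory receptor PD-1, by 1.59. Cxcr5, the chemokine receptor that takes Tfh cells to follicles, differed by -2.72 (16.7% of cells with the pair and 45.1% of the others), and the transcription factor Tox by -2.52. Icos, Sh2d1a and Pdcd1 were higher by 1 or more in Tfh cells of both sorts, while Cxcr5 differed by 0.59 in the Ins sort. In HIP cluster 2 (11 and 50 cells), 6 of 16 Tfh genes were higher, led by Cd200 (2.91), Tox2 (2.58) and Icos (2.06), beside 8.91% of all genes higher and 4.00% lower. The difference between the sorts was not tested.

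CD73 takes the second step of adenosine production, after CD39, the product of Entpd1, has broken ATP down to AMP. Between Tregs and Tfh cells of the Ins sort, with the blocks pooled, the transcripts of these enzymes lay in opposite directions. For Nt5e this did not hold in the first block, with 41.9% of Tregs and 37.5% of Tfh cells. Entpd1 was detected in 48 of 115 Ins Tregs (41.7%, 32.6% to 51.3%) and 3 of 61 Ins Tfh cells (4.92%, 1.03% to 13.7%), a Treg minus Tfh difference of 2.78 against -2.13 for Nt5e. HIP Tfh cells had it in 2 of 111 cells (1.80%), while HIP cells of cluster 2 had it in 31 of 61 (50.8%, 37.7% to 63.9%) and Ins cells of cluster 2 in 6 of 25 (24.0%, 9.36% to 45.1%). Tfh cells of both sorts thus had Nt5e almost without Entpd1.

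Within a cell the enzymes were found together about as often as the product of their single shares. Both enzymes were detected in 14 of 115 Ins Tregs (12.2%, 6.82% to 19.6%), against 10.9% for the product of the shares, and in 5 of 61 HIP cells of cluster 2 (8.20% against 10.0%). In Tfh cells both were found in 1 cell of 111 for HIP and 2 of 61 for Ins. Over all T cells Entpd1 was detected in 34 of 132 cells with Nt5e (25.8%) and 77 of 288 without (26.7%). Cluster 4 had Entpd1 in 18 of 21 cells and Nt5e in 1.

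**Figure D5:**
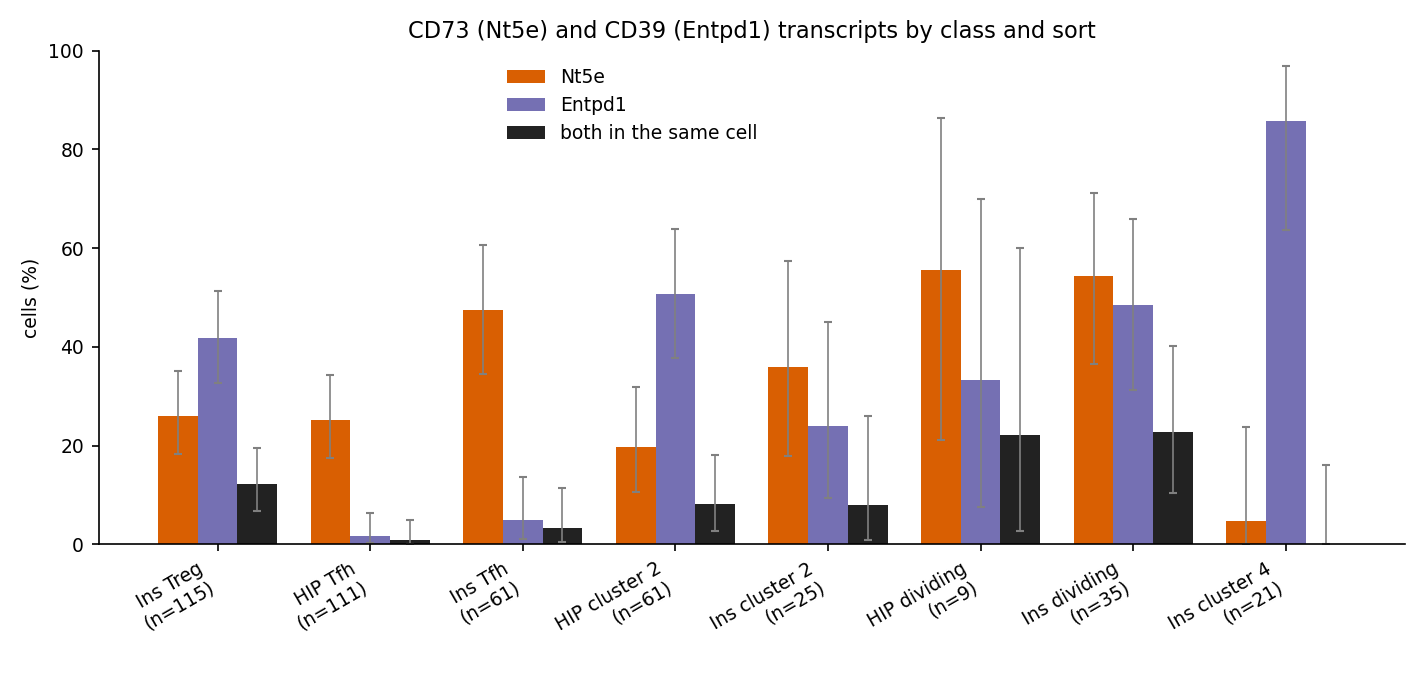
Share of cells with Nt5e (CD73, orange), with Entpd1 (CD39, violet) and with both in the same cell (black) in each class and sort, with exact 95% intervals in grey; the 3 HIP Tregs are not drawn. Ins Tfh cells show 47.5% with Nt5e and 4.92% with Entpd1, against 26.1% and 41.7% in Ins Tregs.

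Of the 19 genes of the adenosine list, 12 had a row in the table. In Tfh cells, HIP minus Ins, Nt5e was the 1 member lower by 1 or more, none was higher and the median was -0.17, against 0 over all genes, of which 1.61% were lower and 0.885% higher by that size. Treg minus Tfh in the Ins sort, 1 of 12 was higher (Entpd1) and 3 were lower, beside 4.03% and 1.94% of all genes: Nt5e, Dpp4, the surface peptidase CD26 (-1.28), and Slc29a1, an adenosine transporter (-1.04). Dpp4 was detected in 2.61% of Ins Tregs and 19.7% of Ins Tfh cells, and Slc29a1 in 24.3% and 36.1%. Adora2a, the adenosine receptor through which T cells are restrained, was detected in 18 T cells of the HIP sort and 24 of the Ins sort. Ada, which degrades adenosine, was detected in 1 HIP and 14 Ins T cells.

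The partners of neuropilin-1 were mostly sparse. Nrp2, its paralog, was detected in 0 of 420 T cells, which allows up to 0.714%. Sema4d, a semaphorin that T cells carry, was detected in 75 T cells of the HIP sort and 123 of the Ins sort, and it differed by 1.22 between Ins Tregs (53.9%) and Ins Tfh cells (41.0%). Of the 6 plexins and semaphorins Sema3a, Plxna1, Plxna3, Plxnb1, Plxnb2 and Plxnd1, none was detected in more than 12 Ins or 4 HIP T cells. Tgfbr2, a receptor of TGF-beta, which neuropilin-1 can bind, was found in 55 HIP and 59 Ins T cells, and Gipc1, the adaptor of the neuropilin tail, in 52 and 65. Of the 17 members with a row, none passed a difference of 1 between the sorts in Tfh cells in either direction. Among all genes, 0.885% were higher and 1.61% lower in HIP. Between Ins Tregs and Ins Tfh cells only Sema4d did so, beside 4.03% of all genes higher and 1.94% lower in Tregs. In each comparison 5 of the 17 were detected in 10% or more of the cells of either group. Counts this small do not set the list apart from all genes.

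Folr4 stood apart from the folate genes. Of the 12 members with a row, 1 was lower by 1 or more in HIP than in Ins Tfh cells, beside 1.61% of all genes. In Ins Tregs 1 was higher than in Ins Tfh cells, beside 4.03% of all genes. Both times it was Folr4 itself. The folate carriers Slc19a1 and Slc46a1 were detected in 6 and 1 of 184 HIP T cells and in 16 and 1 of 236 Ins T cells. In dividing cells against Tregs of the Ins sort, 7 of the 12 were higher by 1 or more and none lower, beside 25.4% and 0.538% of all genes. Their median was 2.01, against 0.23 over all genes and 0.80 over genes detected in 10% of cells, while Folr4 differed by -0.998. Most of the list are enzymes of the folate cycle that feeds DNA synthesis.

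Of the 26 anergy genes, 1 was higher and 4 lower by 1 or more in HIP than in Ins Tfh cells, beside 0.885% and 1.61% of all genes, with a median of 0.25. The list includes Folr4, Nt5e and Nrp1 themselves, and Folr4 and Nt5e are 2 of the 4. Lag3 differed by -2.01 and Ctla4 by 1.17, and Nfatc1, at a share of 49.5% in HIP Tfh cells and 59.0% in Ins Tfh cells, was the fourth lower gene beside Lag3, Nt5e and Folr4. Treg minus Tfh in the Ins sort, 8 were higher and 7 lower, Folr4 and Nt5e among them, beside 4.03% and 1.94% of all genes, with a median of 0.01. The higher ones included Ctla4 (4.96), Lag3 (4.60), Tigit (4.34) and Cd5 (3.12), and the lower ones Dgkz, a kinase that limits receptor signalling (-2.46), and Pdcd1 (-1.79). The list thus held genes that moved with Folr4 and others that moved with Nt5e. Several are also known Treg or Tfh genes, so the list does not tell anergy from either lineage.

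Over the 8 groups of at least 9 cells, the genes whose mean log2 level was most like that of Folr4 were Ets1 (Pearson's r of 0.95), Gimap3, Il27ra, Tgtp2 and Laptm5. For Nt5e they were Lef1 (0.94), Trip12, Sap25, D17H6S53E and Zan, and for Nrp1 Mavs (0.88), Pigp, Nsd1, Uvssa and Naip5. Without cluster 4, Mavs, Pigp and Naip5 still came among the 5 nearest to Nrp1, while none of those named for Folr4 and Nt5e did. Over single cells the nearest genes were Nfatc2 to Nt5e in Ins Tfh cells (0.49), Mtmr6 to Nt5e in HIP Tfh cells (0.44) and Cwf19l2 in Ins Tregs (0.44). For Folr4 they were Itm2b in Ins Tfh cells (0.50), Gimap3 in HIP Tfh cells (0.37) and Myl12a in Ins Tregs (0.50). For Nrp1 they were Zfp433 (0.51), Cct2 (0.42) and Polr3k (0.43) in the same groups. The nearest gene to a member was a different one in each of these groups of cells, and Gimap3 alone was named both over groups and over cells. These correlations share each cell's depth, and 8 groups are few points.

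Neuropilin-1 and CD73 are also made by endothelial and stromal cells, so markers of other cell types were read beside the 3 genes. No stromal marker had a row in the table, so that source could not be read. Either of the endothelial markers Pecam1 and Cdh5 was detected in 19 of 91 T cells with Nrp1 (20.9%) and 33 of 329 without (10.0%), and in 23 of 132 with Nt5e (17.4%) and 29 of 288 without (10.1%). Nearly all of this was Pecam1, which some T cells make and which was detected in 25 of 111 HIP Tfh cells (22.5%), 13 of 61 Ins Tfh cells (21.3%) and 0 of 115 Ins Tregs. The summed level of the pair ran from 0 to 1376 TPM in T cells with Nrp1 and from 0 to 1336 TPM in those without, with medians of 0. Cdh5, the other endothelial marker, was detected in 1 of the 420 T cells, an Ins cell with Nrp1. At least 1 of the 4 B cell markers was detected in 8 of 337 T cells with Folr4 and 3 of 83 without, in 4 of 132 with Nt5e and 7 of 288 without, and in 0 of 91 with Nrp1 and 11 of 329 without. The 4 markers of antibody-secreting cells were more widespread. At least 1 of them was detected in 52.2% of T cells with Folr4 and 37.3% without, in 55.3% with Nt5e and 46.5% without, and in 48.4% with Nrp1 and 49.5% without. All of these were Xbp1, Prdm1 or Irf4, which activated T cells also make. Sdc1, the other marker, was detected in none of the 420 T cells and in 20 of the 21 cells of cluster 4. The 6 myeloid markers were found in 8.90% of T cells with Folr4 and 6.02% without, in 6.82% with Nt5e and 9.03% without, and in 7.69% with Nrp1 and 8.51% without. Islet and acinar markers were found in 19.6% of T cells with Folr4 and 15.7% without, in 20.5% with Nt5e and 18.1% without, and in 18.7% with Nrp1 and 18.8% without. Whether the transcripts of these markers came from the T cells or from other cells was not tested.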

How the data were processed

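The authors deposited 1 expression table on a natural log scale, with 13561 genes in 441 cells. The submitters' processing notes name TopHat, Bowtie, RSEM 1.2.8 and the build mm10 but give no step for any of them. Linear TPM had been assumed in the plan, but after taking the exponential and subtracting 1 every cell summed to 100000, which matches ln(TPM/10 + 1), and TPM was recovered on that basis. The authors' deposited annotation gave the class of each cell and a count of the genes above 0, which equalled the values above 0 in all 441 cells.

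TPM keeps no depth, so the number of genes detected per cell stands in for it. Detection meant 1 TPM. A difference is one of mean log2(TPM + 1) and was called at a size of 1 or more; it understates changes of low genes and moves with the share of cells at 0. The labels tie no cell to an animal, so no test was made and cells are not replicates. For a share of 0, the stated limit is 3 cells out of the total. No doublet caller was run, since the labels say that cells were sorted singly. The code for differences and correlations was tested on simulated data, with Python 3.11.15, and the code for shares and intervals was not.

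The members and gene lists were chosen with earlier results of these data known. By rule, the text names the members, Foxp3, the 4 members of each list with the largest difference, and the genes whose levels are most like a member's by Pearson's r, among genes detected in 10% of cells. Other list genes, the comparison of cells with and without the pair, Entpd1 with Nt5e in 1 cell and the overlap of block means were chosen after their values were seen. Alternatives were detection above 0, at 10 or at 50 TPM, cells without markers of other types, a pseudocount of 10 TPM, cells with 1500 to 3000 genes, equal weight per block, Rn45s left out each block left out and list members detected in 10% of cells.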

Additional observations from a re-analysis of the deposited data

How the results depend on the processing

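Of 561 values computed under alternatives, 531 stayed within the exact interval of their share or within the spread over blocks of their difference, 29 moved further and 1 reversed. With blocks left out in turn, the share of HIP Tfh cells with Folr4 ranged from 52.5% to 78.8%, and the Folr4 difference between HIP and Ins Tfh cells from -2.42 to 0.024; the reversed value came without the first HIP block, and the cause was not tested. With detection at 50 TPM the share with Nrp1 was 22.5% in HIP and 9.84% in Ins Tfh cells. The Nt5e difference between HIP and Ins Tfh cells ranged from -2.42 to -1.31 with blocks left out and was -1.31 with a pseudocount of 10 TPM; that between Ins Tregs and Ins Tfh cells ranged from -3.01 to -1.07. Of the 24 differences of members, 13 were of size 1 or more, and 97 of their 98 alternatives kept the sign and 73 also the size of 1. No HIP dividing cell had 1500 to 3000 genes, so that setting gives no value there. No paired analysis was possible because no test was made and the labels tie no cell to an animal. Depth is unknown, and a transcript at 0 may be one that was not captured.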
